A study of Capra hircus with 6 samples.

Results

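Small RNA of the longissimus dorsi, which runs along the spine, was sequenced from Haimen goats before and after birth, in 3 fetus libraries (pregnancy day 75) and 3 lamb libraries (1 day of age). The results below concern 8 miRNA numbers from the miRBase registry whose entries resemble pieces of other non-coding RNAs: miR-1260, miR-4454 and miR-5100, miR-1246, and miR-6236, miR-6240, miR-2887 and miR-4488. Members were taken from the deposited list of expressed miRNAs as every distinct name whose number, after removal of species prefix, letter, arm, copy number and suffix, equals 1 of the 8. That gave 93 of 1120 listed names: 27 of miR-1260, 25 of miR-6236, 19 of miR-6240, 9 of miR-4454, 6 of miR-1246, 3 of miR-5100, 2 of miR-2887 and 2 of miR-4488. A further 859 names belong to other registry numbers and 168 are predicted candidates. No treatment or genotype is given for either stage, and the labels do not say whether the 3 libraries of a stage came from separate animals or from pools, and the p-values then reflect only how these libraries vary, which may be technical. The members were chosen by their listed names and not by their levels in the 2 stages; the names, sequence classes and named substitutions are therefore given as descriptions.

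A canonical miRNA is cut from a hairpin precursor by Drosha and Dicer, is usually close to a fixed length, and recognises messenger RNAs through its seed, the bases just behind its 5′ end. Transfer RNAs, ribosomal RNAs and spliceosomal small nuclear RNAs are far more abundant in a cell, and short pieces of them enter small RNA libraries and have been deposited in miRNA registries. miR-1260, miR-4454 and miR-5100 resemble 3′ ends of transfer RNAs, which carry the trinucleotide CCA, added by an enzyme after transcription. Human miR-1246 resembles part of the U2 small nuclear RNA, and mouse miR-6236 and miR-6240 and cattle miR-2887 resemble 28S ribosomal RNA. Whether the goat reads match such RNAs was not tested, because no transfer, ribosomal or nuclear RNA sequence was used here.

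The most abundant sequence of each number is shown because the levels below rest on them. Capitals mark the seed, bases 2 to 8. Names starting with hsa, mml, cgr, bta, mmu and ggo come from human, rhesus macaque, Chinese hamster, cattle, mouse and gorilla entries. A suffix L or R counts bases added or removed at the 5′ or 3′ end, and a suffix such as 1ss9AG marks 1 substitution, here A in the entry and G in the read at position 9. Positions are those in the names and run from the 5′ end of the read, or of the entry where bases were removed from its 5′ end.
mml-miR-1260b_1ss9AG: aTCCCACCgctgccacca
hsa-miR-4454_L-2: aTCCGAGTcacggcacca
hsa-mir-5100-p3_1ss17TC: aTCCCAGCggtgcctcca
bta-miR-1246_L+1R+4: aAATGGATttttggagcagggagt
mmu-mir-6236-p3_2: aAATGGATggcgctggagcg
mmu-mir-6240-p3_1ss3TG_2: aCGCGATGtgatttctgcccagtgc
bta-mir-2887-1-p5_1ss19TC: tCCGGTGCggagagccctcc
ggo-mir-4488-p5_1ss18TC: cCCGCCCTccctccgcccc
The sequences shown for miR-1246 and miR-6236 share the seed AATGGAT although they diverge right behind it. The miR-6236 sequence is 1 of 6 with the same deposited values and is shown for that shared seed. The seed TCCCACC stood in 14 of the 25 distinct miR-1260 sequences. No listed goat-prefixed name carried either of these seeds.

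None of the 93 names came from a goat entry, whereas 372 of the 859 other names (43.3%) did. The RefSeq annotation of the goat assembly ARS1.2 holds 264 miRNA genes, and 0 of the 8 numbers has one there. Mouse entries gave 45 of the names, human entries 21, hamster 11, cattle 9, macaque 5 and gorilla 2.

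A mark of identity to the entry in the name was rare. The mark does not cover entries of other species or letters. The most abundant miR-1260 name, mml-miR-1260b_1ss9AG, was marked as differing, but its sequence equals the entry cgr-miR-1260 rebuilt from the hamster names. Likewise mml-miR-1260b_1ss9AT was marked as differing but has the sequence of hsa-miR-1260a. Of the 93 names, 2 (2.15%) were marked as identical to their entry, against 33.9% of the other names, and both were miR-1260: hsa-miR-1260a and bta-miR-1260b. A further 39 (41.9%) differed from the entry, against 57.6%, and 52 (55.9%) were marked as new, against 8.50%. The 52 carry an arm written as p5 or p3 and are called new arms here. That mark need not mean a separate arm. The sequence of mml-mir-1260b-p5_1ss8AG overlaps the miR-1260 entries, and miR-6240, miR-4454 and miR-1246 have such names on both arms besides names of their entries. Names on such new arms made up 45 of the 48 names (93.8%) of miR-6236, miR-6240, miR-2887 and miR-4488, and 5 of the 39 (12.8%) of miR-1260, miR-4454 and miR-5100. Among the latter, changed ends were more common than new arms: 16 of the 39 names were longer than their entry at the 3′ end, and none was shorter. No sequence of the members or the other names was under 18 nt, the length of the rebuilt miR-1260 entries. A miR-1260 read shortened only at its 3′ end could therefore not be listed, and the lack of shorter names says little. The gaps to the other names were smaller for identity, and the like set has no goat prefix: there 15.6% were identical, 71.5% differed and 12.9% were on new arms.

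The sequences were also short. The 93 names hold 84 distinct sequences, with a median length of 20 nt against 22 nt for the 841 distinct sequences of other names. Both sets stop at 18 nt, so shorter reads are not seen. Lengths of 18 to 20 nt made up 69.0% of the member sequences and 14.5% of the others, and 22 nt, the usual length of a miRNA, 3.57% and 40.1%. For the others without the goat prefix these shares were 23.1% at 18 to 20 nt and 31.6% at 22 nt. A 5′ T, the base that Argonaute proteins favour at the start of a miRNA, began 17.9% of the member sequences and 36.7% of the others. The median GC content was 57.1% against 50.0%, and the medians within a number ran from 42.6% in miR-1246 to 89.2% in miR-4488.

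**Figure D1:**
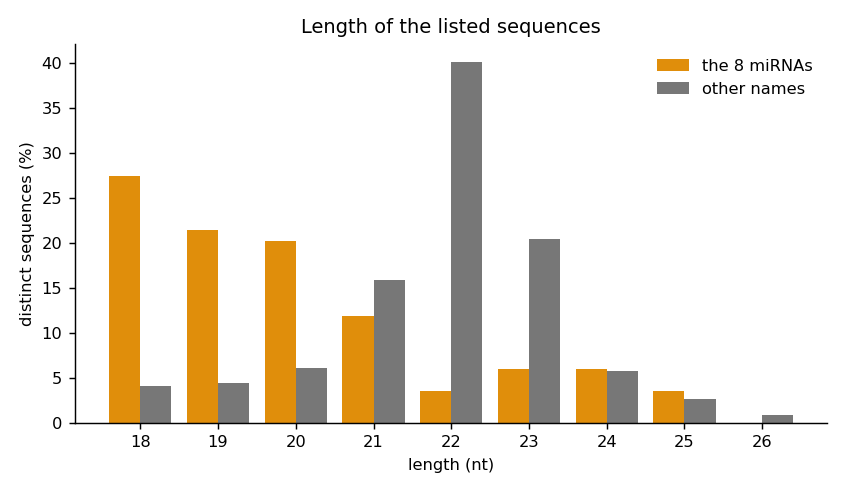
Length of the distinct sequences in nucleotides (horizontal axis) as a percentage of the sequences in each set (vertical axis), for the 84 sequences of the 8 miRNAs (orange) and the 841 of other registry names (grey). The 8 miRNAs are most frequent at 18 nt (27.4%), the shortest length in either set, and the others at 22 nt (40.1%).

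The miR-1260 names describe 1 short stretch with a variable base and ragged ends. The most abundant sequence has G at base 9, the human entry miR-1260a has T there and the cattle entry miR-1260b has A, and all 3 forms were listed. The following sequences show these forms, the most abundant form with a tail and the 2 forms that differed between the stages, with capitals on the CCA at which the entry ends.
mml-miR-1260b_1ss9AG: atcccaccgctgccaCCA
hsa-miR-1260a: atcccacctctgccaCCA
bta-miR-1260b: atcccaccactgccaCCA
mml-miR-1260b_R+1_1ss9AT: atcccacctctgccaCCAt
cgr-miR-1260_R+2: atcccaccgctgccaCCAta
cgr-miR-1260_L+1R+1: aatcccaccgctgccaCCAt
Undoing the suffix of the hamster names gives the entry cgr-miR-1260, whose sequence equals that of the macaque name with A9G, so this name reads as a substitution against 1 species and as an exact copy against another. The sequence of hsa-miR-1260a was likewise listed under another name, as mml-miR-1260b_1ss9AT with the same values. Among reads of the 3 forms that end at CCA, the G form made up 85.6% to 88.9% in the 6 libraries, with overlap between the stages.

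CCA ends set the transfer-RNA-like numbers apart from the rest of the list. Of their 36 distinct sequences, 16 (44.4%) ended exactly in CCA and 17 (47.2%) ended in CACCA followed by 1 to 3 further bases. Of the 42 sequences of miR-6236, miR-6240, miR-2887 and miR-4488, none did either. Among the 841 sequences of other names, 15 (1.78%) ended in CCA and 4 (0.476%) in CACCA with 1 to 3 further bases. miR-4454 and miR-5100 end in the same trinucleotide in their most abundant sequences, ggcaCCA and tgcctCCA.

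Substitutions were named in 53 of the 93 names (57.0%) and in 212 of the 859 others (24.7%). The gap was smaller against the other names without the goat prefix (39.2%). Placing the reads of a number over each other showed where these substitutions fall. In miR-5100, miR-1246, miR-2887 and miR-4488 every named substitution fell on 1 base of the underlying stretch, whatever the start of the read. The 3 names of miR-5100 carry T17C, T18C and T21C, both of miR-2887 carry T19C and T9C, and both of miR-4488 carry T17C and T18C. In miR-1260, 8 of 11 substituted names, and in miR-4454, 4 of 6, fell on 1 base. Such reads differ from the foreign entry in their name at 1 fixed place.

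The 25 names of miR-6236 were arranged differently. All 13 substituted names carry the same change at the same place in the read, G9T, while the reads start at different places, so that the change falls on 6 different bases of the stretch. Across all 8 numbers, a G-to-T change at base 9 of the read stood in 17 of the 53 substituted names (32.1%), all of miR-6236 or miR-6240, against 12 of 212 (5.66%) among the other names. The 10 sequences of miR-6236 without a substitution join end to end, at overlaps of at least 10 bases, into 51 bases. In that stretch capitals mark the 46 bases that names without a substitution cover on both the 5p and the 3p arm.
miR-6236 joined: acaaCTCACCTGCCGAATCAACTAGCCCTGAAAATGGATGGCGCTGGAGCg
miR-2887 joined: tccggtgcggAGAGCCCTCCgtcccgggac
The arms of a hairpin are separate strands of its stem and do not overlap in sequence. In miR-6236 the reads named 5p started at positions up to 31 of this stretch and those named 3p from position 5, from 13 distinct starts in all. The 5p and 3p names of miR-2887 share 10 bases of a stretch of 30. The same sequence stood under both arms for 4 sequences of miR-6236, 2 of miR-6240 and 1 of miR-4454, and for 4 of the 841 others.

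**Figure D2:**
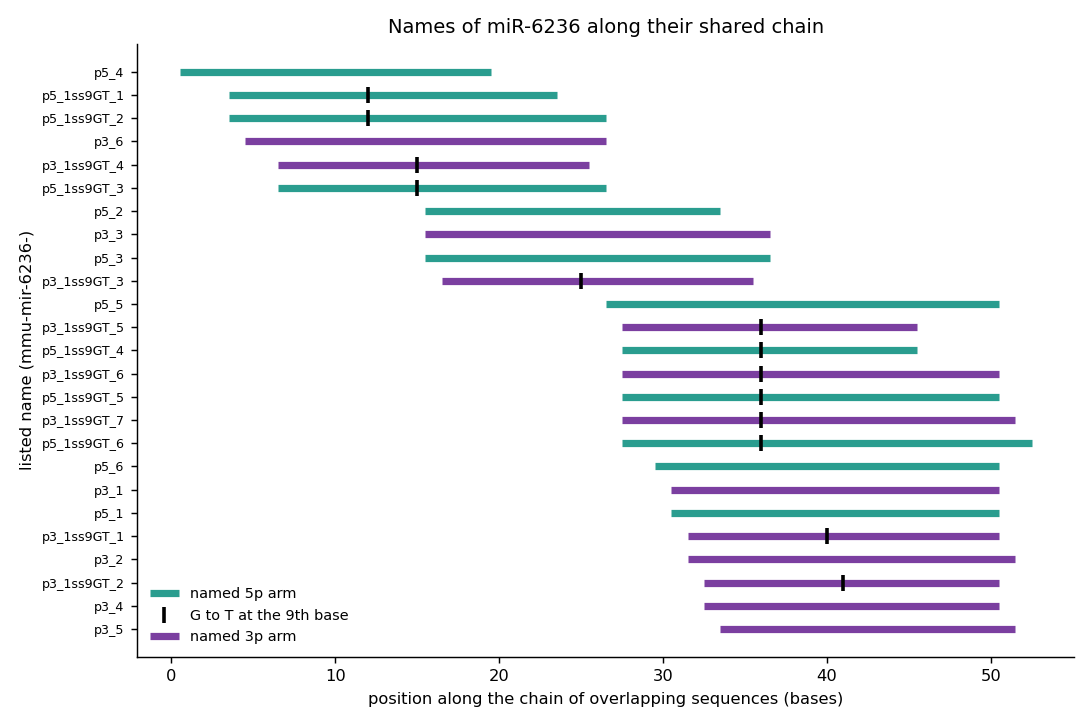
Each of the 25 miR-6236 names (rows) drawn along the joined stretch (horizontal axis, position in bases), coloured by the arm in its name, with a black tick at the substituted base. The 5p and 3p names lie over each other, and the 13 ticks stand at base 9 of each read and on 6 different positions of the stretch.

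Levels come from deposited read counts. The 6 libraries held 6096009 to 13756954 listed reads, and the lamb 2 library had the fewest. The 25 names of miR-6236 showed only 4 distinct sets of 6 counts, shared by 9, 8, 4 and 4 names, which hold 7, 6, 4 and 4 distinct sequences. Among names with a mean of at least 10 reads, 26 of the 58 member names (44.8%) had exactly the counts of a name with another sequence, against 11 of 611 others (1.80%). A number printed for 1 such name therefore need not belong to its sequence alone. A sum over names, or over distinct sequences, may count reads more than once. Levels of a number were summed over distinct sequences and given as TMM-scaled counts per 1000000 listed reads (CPM). Summed over distinct sequences, the members took 0.164%, 0.336% and 0.331% of the listed reads in fetus 1, 2 and 3 and 0.291%, 0.711% and 0.123% in lamb 1, 2 and 3.

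Markers of other cells were read in the same libraries, from lists compiled with earlier results known. All 6 numbers of the striated muscle list were present, and their summed level of 65128 to 78864 CPM in fetus and 244758 to 338485 in lamb exceeded that of every other list, with 8 of 16 tested names higher and 1 lower in lamb. White blood cell miRNAs summed to 189 to 214 CPM in fetus and 553 to 1092 in lamb, the highest in lamb 2, with 2 of 6 tested names higher and 1 lower. Red blood cell miRNAs summed to 122 to 249 and 60.8 to 114 CPM with 1 of 3 tested names lower, and endothelial miR-126 to 1693 to 2238 and 3403 to 3540 CPM with 2 of 3 names higher. Stromal miRNAs summed to 39225 to 48075 CPM in fetus and 20400 to 31236 in lamb, with 3 of 13 names higher and 5 lower. Epithelial miRNAs lay at 2.21 to 70.6 and 10.9 to 14.5 CPM with none of 4 called, and neural ones at 11.4 to 22.1 and 6.75 to 9.39 CPM with the 1 tested name lower, and miR-141 and miR-137 of these lists had no listed name. Their part in the members' levels was not tested, and in bulk tissue a change in the share of a cell type and a change in RNA per cell cannot be told apart.

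Among the transfer-RNA-like numbers, miR-1260 was the most abundant. Its summed level was 729, 956 and 860 CPM in fetus 1, 2 and 3 and 347, 1010 and 292 CPM in lamb 1, 2 and 3. Lamb 1 and lamb 3 lay below every fetus library and lamb 2 above all of them, so the stages overlapped. The difference, as the mean log2 level in lamb minus that in fetus, was −0.85 and changed to −1.41 without lamb 2.

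miR-4454 and miR-5100 were lower in level and far more uneven between lambs. miR-4454 summed to 30.4, 45.4 and 60.1 CPM in fetus and to 4.85, 116 and 22.5 CPM in lamb. miR-5100 summed to 43.0, 78.9 and 104 CPM in fetus and to 13.6, 282 and 34.5 CPM in lamb. In both, lamb 1 was the lowest of the 6 libraries and lamb 2 the highest, 23.9 and 20.7 times lamb 1. For both the sign of the stage difference depended on the scale: on the log2 scale lamb was lower by −0.90 and −0.47, while the arithmetic means were 45.3 ± 14.9 (SD, n = 3) in fetus and 47.8 ± 59.8 (SD, n = 3) in lamb for miR-4454, and 75.2 ± 30.6 and 110 ± 149 (SD, n = 3 each) for miR-5100.

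The U2-like miR-1246 showed the same order of lambs. Its summed level was 11.9, 21.9 and 18.8 CPM in fetus and 3.07, 69.6 and 23.1 CPM in lamb, and lamb 2 was 22.7 times lamb 1. The 4 unsubstituted sequences that overlap join into 25 bases.
miR-1246 joined: taaatggatttttggagcagggagt
As in miR-4454 and miR-5100, the lowest and the highest of the 6 libraries were both lambs.

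The ribosomal-RNA-like numbers and miR-4488 had another order. miR-6240 was the most abundant of them, at 373, 869 and 792 CPM in fetus and 1233, 2321 and 384 CPM in lamb. miR-6236 summed to 170, 473 and 493 CPM in fetus and to 854, 2106 and 310 CPM in lamb. Taken once per set of counts, miR-6236 summed to only 31.5, 87.7 and 90.6 CPM in fetus and 158, 389 and 57.1 CPM in lamb. Both miR-6240 and miR-6236 were highest in lamb 2, then lamb 1, while lamb 3 lay below fetus 2 and fetus 3. miR-2887 summed to 202, 544 and 589 CPM in fetus and to 828, 1766 and 264 CPM in lamb. miR-4488, at 4.15, 10.4 and 13.8 CPM in fetus and 17.3, 33.1 and 5.38 CPM in lamb, was the least abundant of the 4. In all 4 numbers fetus 1 was the lowest library of all. Lamb minus fetus on the log2 scale was 1.27 for miR-6236, 0.70 for miR-6240, 0.86 for miR-2887 and 0.79 for miR-4488, and the stages overlapped in each of the 4.

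**Figure D3:**
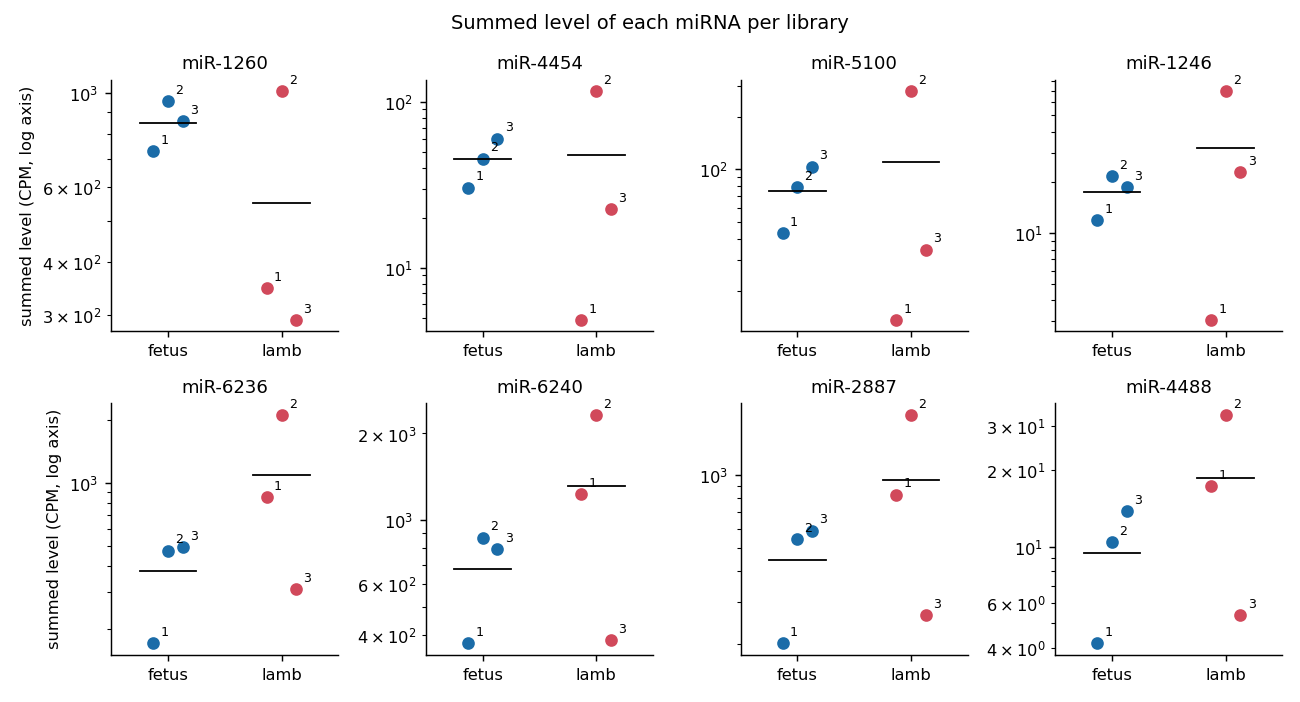
Summed level of each of the 8 miRNAs in counts per 1000000 listed reads (vertical axes, log scale, 1 range per panel) in the 3 fetus (blue) and 3 lamb (red) libraries, numbered by replicate, with a line at the arithmetic mean of the stage. Lamb 2 is the highest library in all 8 panels, and the lowest is lamb 3 for miR-1260, lamb 1 for miR-4454, miR-5100 and miR-1246, and fetus 1 for the other 4.

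Spread between lambs exceeded that of other names. Among tested names with a mean of at least 10 reads, the median SD of log2 levels was 0.651 in fetus and 1.36 in lamb for 58 member names, against 0.228 and 0.334 for 609 others. Lamb 2 was the highest lamb in 58 of the 58 member names and in 26.8% of the others. Several of the 58 share their counts or their reads, so they are not independent observations.

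Ratios between numbers within a library do not depend on how the libraries are scaled to each other. miR-1260 reads were 4.28, 2.02 and 1.74 times those of miR-6236 in fetus and 0.406, 0.479 and 0.944 times in lamb. The size of this ratio depends on how the shared counts of miR-6236 are summed. Taken once per set of counts, miR-1260 exceeded miR-6236 in every library, with 10487.5 against 454.5 reads in fetus 1. In lamb 1 it had 2817 against 1286.5 reads. The ratio of miR-1260 to miR-6240 was 1.95, 1.10 and 1.08 in fetus and 0.281, 0.435 and 0.761 in lamb. The ratio to miR-2887 was 3.61, 1.76 and 1.46 in fetus and 0.419, 0.572 and 1.11 in lamb. In each of these 3 ratios every lamb library lay below every fetus library, although the summed levels overlapped between the stages. miR-1260 relative to miR-4488 behaved the same way, with 176, 91.9 and 62.2 in fetus and 20.02, 30.5 and 54.3 in lamb.

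Among miR-6236, miR-6240, miR-2887 and miR-4488 some proportions varied little and others separated the stages. miR-6236 stood at 0.844, 0.870 and 0.837 of the miR-2887 reads in fetus and at 1.03, 1.19 and 1.17 in lamb, so the lambs were higher without overlap by a small step. Taken once per set of counts, miR-6236 had 454.5 reads beside 2915 of miR-2887 in fetus 1, and 1286.5 beside 6744 in lamb 1. The ratio of miR-2887 to miR-4488 lay between 42.6 and 53.4 in all 6 libraries, with overlap, although miR-2887 itself ranged from 202 to 1766 CPM. miR-6236 stood at 0.457 to 0.622 of the miR-6240 reads in fetus and at 0.692 to 0.907 in lamb. It stood at 35.6 to 45.5 times the miR-4488 reads in fetus and at 49.3 to 63.7 times in lamb, and both ratios were higher in lamb without overlap. The ratios of miR-6240 to miR-2887, 1.31 to 1.85, and of miR-6240 to miR-4488, 57.3 to 89.8, overlapped. In all, 11 of the 28 possible ratios (39.3%) did not overlap between the stages, and the same 11 pairs were found with all 3 ways of summing. The size of the ratios with miR-6236 differed between these ways. Over the 254 other registry numbers above 0 in all 6 libraries, 58.9% of 32131 ratios did not overlap, so such ratios were no more common among the members. No test was made on them.

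**Figure D4:**
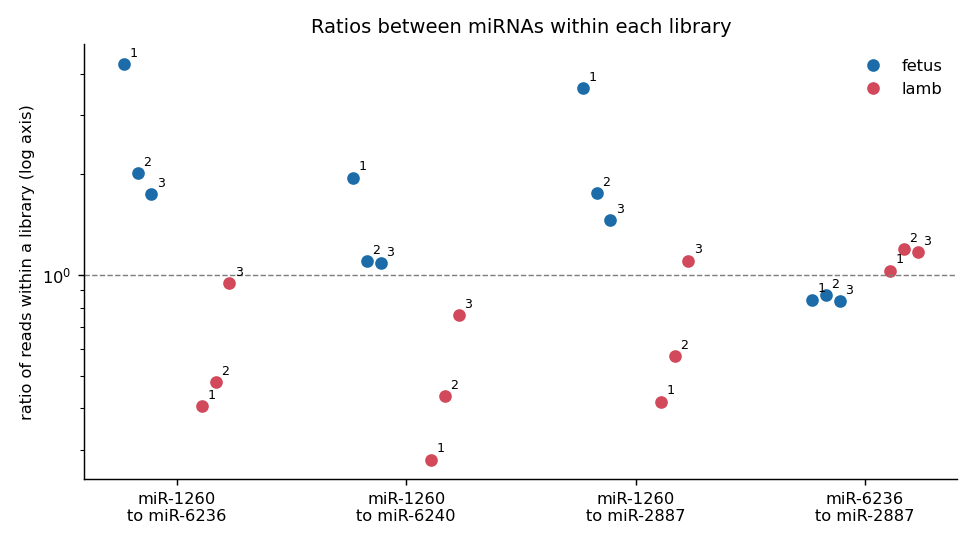
Ratio of summed reads between pairs of miRNAs within each library (vertical axis, log scale) for 3 fetus (blue) and 3 lamb (red) libraries, numbered by replicate, with a dashed line at 1. miR-1260 relative to miR-6236, miR-6240 and miR-2887 is lower in every lamb than in every fetus library, and miR-6236 relative to miR-2887 is higher, at 1.03 to 1.19 against 0.837 to 0.870. Sums are over distinct sequences, and whether ratios with miR-6236 lie above or below 1 depends on how its shared counts are summed.

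Ratios between forms of the same number overlapped more often than not. Among names with a mean of at least 10 reads, taken once per set of counts, 12 of 107 ratios between forms of a member (11.2%) did not overlap between the stages, beside 50.2% of 654 within other numbers. The 5p name of miR-2887 had 2.12, 1.998 and 2.09 times the reads of the 3p name in fetus and 2.89, 3.38 and 2.25 times in lamb, without overlap. Within miR-1260, cgr-miR-1260_R+2, the G form with the tail TA, had 18.6, 17.5 and 15.4 reads per 1000 reads of the G form that ends at CCA in fetus and 10.5, 4.99 and 9.43 in lamb, again without overlap. The 2 main forms of miR-1246, bta-miR-1246_L+1R+4 to bta-miR-1246_R+4, stood at 1.75, 2.42 and 1.82 in fetus and 2.33, 1.77 and 6.62 in lamb, with overlap. All miR-1260 reads with bases beyond CCA made up 6.56% (95% exact binomial interval 6.09% to 7.04%), 6.71% (6.23% to 7.20%) and 5.95% (5.45% to 6.48%) in fetus. In lamb they made up 3.56% (2.89% to 4.29%), 3.60% (3.12% to 4.11%) and 7.13% (6.17% to 8.20%), so lamb 3 lay above the fetus libraries and the stages overlapped. These intervals cover counting error only.

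The stages were then compared name by name with edgeR's quasi-likelihood test over all 881 names above 0 in at least 3 of 6 libraries, with Benjamini-Hochberg adjustment over all of them and a threshold of 0.05. Of all tested names, 339 (38.5%) differed, 230 (26.1%) lower and 109 (12.4%) higher in lamb. Of the 93 member names, 82 were tested, and 2 of them (2.44%) differed, both lower in lamb and both forms of miR-1260 with bases beyond CCA. Without adjustment, 6 of the 82 and 403 of the 881 (45.7%) had a p under 0.05. Lamb lay below fetus without overlap in 8 member names, all of miR-1260, beside 35.9% of all tested names, and above fetus without overlap in 0, beside 17.8%. Of these 8, cgr-miR-1260_L+1R+1 and hsa-miR-1260a_1ss18AT had 0 reads in every lamb library. They passed the filter only through fetus, so their lack of overlap was fixed by the filter. Another pair, cgr-miR-1260_R+1 and hsa-miR-1260a_R+1_1ss9TG, shares 1 sequence and its counts. The 82 names hold 50 distinct sets of counts, so they are fewer observations than names.

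The clearest change was in cgr-miR-1260_R+2, printed above with its tail TA. It had 158, 146 and 102 reads in fetus 1, 2 and 3 and 25, 23 and 19 reads in lamb 1, 2 and 3. Every lamb library lay below every fetus library, lamb 2 included, unlike the summed miR-1260. Its level was 11.7 ± 1.55 CPM (SD, n = 3) in fetus and 3.11 ± 0.956 CPM (SD, n = 3) in lamb, and it fell by a log2 difference of −1.91 ± 0.35 (SE; edgeR quasi-likelihood test, adjusted p = 0.00615).

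The other called form, cgr-miR-1260_L+1R+1, was rare. It had 7, 7 and 9 reads in fetus and 0, 0 and 0 in lamb. The filter for the test was thus passed only through the fetus libraries, where it was high, so its p-value gives little support. Taking 3 reads over the 3 lamb libraries as the floor, its level was at least 4.94-fold lower in lamb (edgeR quasi-likelihood test, adjusted p = 0.0245). The call was lost with DESeq2 (adjusted p = 0.0549), without the filter on low values (adjusted p = 0.0874 in edgeR) and when any 1 fetus library was left out, where edgeR's adjusted p was 0.0584, 0.0710 and 0.0761; over all its alternatives the adjusted p ran from 0.00236 to 0.263.

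The most abundant form of miR-1260, mml-miR-1260b_1ss9AG, did not pass the test. It had 8502, 8345 and 6616 reads in fetus and 2392, 4606 and 2014 in lamb, which is 682 ± 90.1 and 448 ± 323 CPM (SD, n = 3 each). The log2 difference was −0.61 ± 0.47 (SE; edgeR quasi-likelihood test, adjusted p = 0.344). Without lamb 2 it was −1.32 and past the threshold. Over the 24 tested miR-1260 names the median difference was −0.99, with 19 negative and 5 positive, against a median of −0.23 over all tested names.

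No name of the other 7 numbers passed the test. For miR-4454 the main name hsa-miR-4454_L-2 had 400, 455.5 and 530.5 reads in fetus and 27, 573.5 and 160.5 in lamb, where the fractions are as deposited. For miR-5100, hsa-mir-5100-p3_1ss17TC had 621, 845 and 988 reads in fetus and 111, 1570 and 292.5 in lamb. For miR-1246, bta-miR-1246_L+1R+4 had 99.5, 152.5 and 105.5 reads in fetus and 17.5, 212 and 175.5 in lamb. In all 3 the lambs lay on both sides of the fetus libraries. The log2 differences were −0.02 ± 1.03 (SE) for miR-4454, 0.54 ± 1.03 (SE) for miR-5100 and 0.91 ± 0.86 (SE) for miR-1246, with edgeR adjusted p of 0.993, 0.706 and 0.437. The first 2 changed sign under some alternatives.

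In miR-6236, miR-6240, miR-2887 and miR-4488 all tested names had a difference above 0, and none passed. mmu-mir-6236-p3_1, which shares its counts with 7 other names, had 271.5, 555.5 and 514.5 reads in fetus and 771.5, 1295 and 301 in lamb, a log2 difference of 1.54 ± 0.72 (SE; edgeR adjusted p = 0.141). mmu-mir-6240-p3_1ss3TG_2 had 1741, 3057 and 2472.5 reads in fetus and 3365.5, 4318 and 1046.5 in lamb, a difference of 0.98 ± 0.65 (SE; edgeR adjusted p = 0.274). In both, lamb 3 lay inside or below the range of the fetus reads, whereas lamb 1 and lamb 2 lay above it. Scaled to CPM, the miR-6240 name was nearly equal in lamb 3 and fetus 1, at 119.9 and 120.5. The T-to-C form bta-mir-2887-1-p5_1ss19TC had 1982, 3937 and 3832 reads in fetus and 5012, 7665 and 1597 in lamb, a difference of 1.27 ± 0.73 (SE; edgeR adjusted p = 0.213). ggo-mir-4488-p5_1ss18TC had 28, 73 and 78.5 reads in fetus and 74.5, 103.5 and 34.5 in lamb, a difference of 0.90 ± 0.72 (SE; edgeR adjusted p = 0.351). The median difference was 1.43 over the 25 names of miR-6236, 0.98 over the 17 tested names of miR-6240, 0.97 for miR-2887 and 0.98 for miR-4488.

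**Figure D5:**
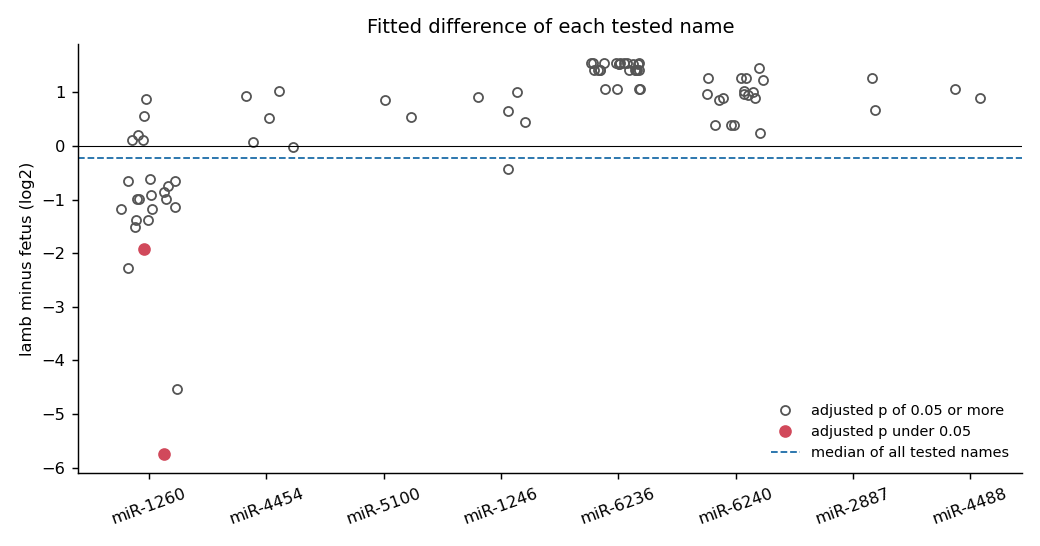
Fitted difference, lamb minus fetus on the log2 scale (vertical axis), of each of the 82 tested names by miRNA number, with names past an adjusted p of 0.05 filled in red and the median of all 881 tested names dashed. The 2 filled points are miR-1260 forms, the lower of them with 0 reads in lamb, where the fitted value is no bound, and every point of miR-6236, miR-6240, miR-2887 and miR-4488 lies above 0.

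The count of called members rested on single lamb libraries. Without lamb 2, 9 member names were lower, 8 of miR-1260 and 1 of miR-1246, beside 27.4% of all tested names. The filter was set on all 6 libraries. The miR-1246 name (log2 −5.95) and cgr-miR-1260_L+1R+1 (log2 −5.84) had 0 reads in lamb 1 and lamb 3. Among the libraries left they had reads only in fetus, so these calls give little support. Without lamb 3, 20 were called, beside 40.6% of all tested names, and 17 of them were higher, namely 12 of miR-6236, 4 of miR-6240 and 1 of miR-2887, beside 12.8% of all tested names. DESeq2, with all 6 libraries, called 12 names of miR-6236 higher, beside 18.7% of all tested names, and 1 of miR-1260 lower, beside 23.3%. These 12 names hold only the sets of counts shared by 8 and by 4 names, so they are far fewer observations than names.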

How the data were processed

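Libraries were made with the TruSeq small RNA kit from 2.5 ng of RNA and size-selected on a gel, per the labels' protocols; selection and adapter ligation limit which fragments are counted. Which aligner, miRBase release or goat build was used is not given in the sources used here. Only mm9 is named in the submitters' processing notes, and no coordinates are printed. The deposited table gives, for 1119 of 1120 names, estimated counts, some of them not whole, for a reason that is not given, and a normalized signal that the authors made with 1 factor per library. Its deposited stage means and the authors' p-values were not used.

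Counts were rounded and tested with edgeR 4.0.16 (TMM, quasi-likelihood, R 4.3.3), names above 0 in at least 3 of 6 libraries, all libraries in 1 fit without covariates. The test was planned as edgeR where counts are deposited, and limma 3.58.1 on log2(signal + 1) and DESeq2 1.42.0 were alternatives. On simulated data for this comparison over 881 names, edgeR recovered 13.4% of changes of fold 2 and 52% of fold 4, with 4.11% false calls. These shares average over all tested names. The members varied more between libraries than the others, so the shares need not hold for them. Named are the most abundant name of each number and every member name called, plus miRNA lists. The members and lists were chosen with earlier results of these data known.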

Additional observations from a re-analysis of the deposited data

How the results depend on the processing

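The count of called members, 2 of 82, stood beside 339 of all 881 tested names. It was 1 of 93 without the filter on low values, beside 299 of 1119. With a mean of at least 10 normalized reads it was 1 of 63, beside 296 of 711. The same total per library gave 4 and DESeq2 13, beside 352 and 370 of 881. With 1 library left out it ran from 1 to 20. limma (pseudocounts 0.5, 1 and 10) gave 3, 3 and 2, beside 349, 360 and 370 of 881. The authors' scaling gave 2, beside 342 of 881. Taking 1 name per set of counts gave 2 of 50, beside 336 of 826. Over all names the count was 223 to 366 when 1 library was left out. Same-numbered libraries did not deviate together (correlations 0.158, 0.267 and −0.273, and lamb 3 correlated best with fetus 1, at 0.416), so the numbers do not pair them; with the replicate block 224 names and 1 member name were called, and cgr-miR-1260_L+1R+1 was not (adjusted p = 0.263). The split of all calls into higher and lower, 109 and 230, was 73 and 279 with the same total per library, 148 and 194 with the authors' scaling and 165 and 205 with DESeq2, and the median log2 difference of all names, −0.23, was −0.50, 0.05 and 0.02. cgr-miR-1260_R+2 stayed lower and past the threshold in every alternative run, with adjusted p from 6.43e-05 to 0.0346.

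hsa-miR-4454_L-2 turned positive at 0.13 without the filter, 0.027 with the mean of at least 10, 0.24 without fetus 3, 0.53 without lamb 1, 0.34 without lamb 3, 0.19 with DESeq2, 0.26 with the authors' scaling and 0.033 with 1 name per set of counts. hsa-mir-5100-p3_1ss17TC turned negative at −0.19, −0.19 and −0.17 with limma (pseudocounts 1, 0.5 and 10), −0.59 with the replicate block and −1.60 without lamb 2. With 1 library left out the first ran from −1.87 to 0.53 and the second from −1.60 to 1.07. The cause was not tested.

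With 1 library left out, the summed difference of miR-1260 ran from −1.41 to −0.51, miR-4454 from −2.06 to 0.23, miR-5100 from −1.70 to 0.48, miR-1246 from −1.01 to 1.24, miR-6236 from 0.59 to 1.97, miR-6240 from 0.11 to 1.41, miR-2887 from 0.22 to 1.59 and miR-4488 from 0.20 to 1.51. Without names on new arms, substitutions stood in 41.5% of member names and 21.2% of others. With new arms kept, they stood in 39.2% of others without the goat prefix. Depth limits the rare forms, such as those with under 10 reads in a library.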

Other observations

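Other entries of the same kinds were looked for in lists compiled with earlier results of these data known. Of 7 further transfer-RNA-like numbers only cattle miR-2478 was listed, as bta-miR-2478_L-2, at 467, 628 and 623 CPM in fetus and 229, 1842 and 291 CPM in lamb (edgeR quasi-likelihood test, adjusted p = 0.671). It starts like miR-1260 and ends in CCA, shown in capitals. Lamb 2 was its highest and lamb 1 its lowest library, as in miR-4454, miR-5100 and miR-1246.
bta-miR-2478_L-2: atcccacttctgacaCCA
Of 10 further ribosomal-RNA-like numbers only miR-2904 was listed. Its 2 names summed to 460, 1212 and 1280 CPM in fetus and 2011, 4128 and 610 CPM in lamb, with log2 differences of 1.11 and 1.31 (edgeR adjusted p = 0.251 and 0.183). That is the order of miR-6236 and miR-2887, with lamb 2 highest and fetus 1 lowest.

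Of 6 numbers that resemble small nucleolar RNAs, 3 were listed, with 6 names of which 4 were tested. Of these, 3 were higher in lamb, beside 12.4% of all tested names. bta-miR-664b_R+1 had 875, 610 and 516 reads in fetus and 836, 461 and 1295 in lamb (log2 0.97, edgeR adjusted p = 0.0260). Scaled to CPM these were 60.6, 56.2 and 53.7 in fetus and 103, 81.9 and 148 in lamb, without overlap. bta-mir-664a-p3_1ss20CA had 50, 57 and 49 reads in fetus and 102, 125 and 112 in lamb (log2 1.78, edgeR adjusted p = 0.00997). Neither of 2 Y RNA-like numbers was listed.

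Outside the 8 numbers, 20 names ended in CCA, chosen after their values were seen. Of the 19 tested, 1 was higher and 0 lower in lamb (edgeR), with a median log2 difference of 0.80. Among them oan-miR-1386 had 191, 345 and 406 CPM in fetus and 54.7, 1218 and 202 CPM in lamb, and hsa-miR-7977_1ss6AG had 109, 195 and 222 CPM in fetus and 66.7, 717 and 128 CPM in lamb. Lamb 2 was the highest and lamb 1 the lowest library, alone or tied, in 16 of the 20 names, these 2 included. The 20 names hold 19 distinct sequences, several share their counts and some are predicted candidates, so they are not independent observations. In 2 names lamb 3 was the highest: chi-miR-223-3p, at 12.1 CPM there, and bta-miR-193a-3p_R-2, at 7.79 CPM there, the 1 name that was higher in lamb.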
